A study of Homo sapiens with 96 samples.

Results

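Described here are 45 genes of the G1/S transition and of DNA replication, taken by gene symbol from a fixed list and followed in the breast cancer line MDA-MB-231 (human) after EGF was added with or without U0126, an inhibitor of the kinase MEK. All 45 were measured, on 72 probe sets, among 11874 genes on the arrays. The series held 96 arrays, 32 in each of 3 series, named 2D03 and 2D04 (2D culture) and 3D04 (3D culture). Per the labels, every culture had been grown to 80% confluence and then kept in low serum for 24 h. The control cells received nothing more, the EGF cells received 10 ng/ml EGF at 0 h, the DMSO-EGF cells had vehicle for 30 min and then EGF, and the U0126 cells had 10 uM U0126 for 30 min and then EGF. Each of these 4 arms was sampled at 0.5, 1, 4, 8, 12, 24 and 48 h, with 1 array per series, so with 2 arrays per arm and time in 2D and 1 in 3D. At 0 h there were untreated control arrays (4 in 2D and 2 in 3D) and arrays of cells given only DMSO or only U0126, without EGF.

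Whether repeats were grown as separate cultures is not stated in the labels. The p-values therefore reflect only how these samples vary, which may be technical. The 3D arrays form 1 series, so 3D culture and that series cannot be told apart. Values are presumed log2 signals relative to an unstated reference per probe set, so only differences between arrays are read, and the identity of the line could not be checked from levels. In bulk RNA of this kind, fewer cells of a type and less RNA per cell cannot be told apart. Of 5 leukocyte and 6 fibroblast marker genes, 0 passed the test (limma) in U0126 against DMSO-EGF at 48 h in 2D, and 0 had an unadjusted p under 0.05.

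A cell commits to dividing when cyclin-dependent kinases inactivate the retinoblastoma family of proteins and free the E2F transcription factors, which switch on the genes for making DNA. Their products license and fire replication origins, load the sliding clamp, copy the strands, join the fragments and supply nucleotides. MEK activates ERK, and ERK signalling from growth factor receptors is one of the inputs that carry a cell into this programme.

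Promoters are shown because genes of this programme are textbook targets of E2F factors. In the RefSeq promoter table (GRCh38.p14, 250 bases before to 50 after each start), 41 of the 45 members had an entry; POLD3, RPA2, RPA3 and E2F8 were not among them. An E2F motif, searched on both strands as TTTCCCGC, TTTGGCGC, TTTCGCGC or TTTGCCGC, was in 18 of the 41 promoters (43.9%). The same letters were in 3.33% of all 27305 promoters of the table and in 4.92% of the 9592 promoters of genes with a probe set. There were 20 matches in members, and 2 of them overlapped an SP1 box. The core of that box, searched on both strands as GGGCGG, was in 70.7% of member promoters and 63.1% of those with a probe set. The CCAAT box was in 51.2% against 37.5%. The CHR element known from mitotic genes, TTTGAA, was in 4.88% against 10.9%. A match is a description of letters and not evidence of binding. The 18 members with an E2F match had a median U0126 minus DMSO-EGF difference of -1.41 (log2) at 48 h in 2D, and the 23 without one had -1.36. At 24 h these medians were -0.93 (from -1.74 to -0.72) and -0.74 (from -1.54 to -0.06). Whether the 2 sets of members differ was not tested.

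The 150 bases before the start are printed for 4 members, with the E2F letters in capitals, 5′ to 3′ on the gene's own strand: GINS2, with the largest late difference of its role group, at chr16:85688955-85689104 (minus strand), RFC3, the same for the clamp loader, at chr13:33817999-33818148 (plus strand), E2F1, which holds a pair of matches, at chr20:33686386-33686535 (minus strand), and E2F3, the first member to pass the test in 2D, at chr6:20401729-20401878 (plus strand).
GINS2: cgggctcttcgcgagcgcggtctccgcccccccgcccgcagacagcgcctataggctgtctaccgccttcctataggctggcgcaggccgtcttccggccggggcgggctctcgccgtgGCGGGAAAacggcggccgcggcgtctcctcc
RFC3: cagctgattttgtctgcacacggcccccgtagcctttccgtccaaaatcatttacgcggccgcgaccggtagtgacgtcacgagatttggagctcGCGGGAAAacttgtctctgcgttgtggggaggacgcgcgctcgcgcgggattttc
E2F1: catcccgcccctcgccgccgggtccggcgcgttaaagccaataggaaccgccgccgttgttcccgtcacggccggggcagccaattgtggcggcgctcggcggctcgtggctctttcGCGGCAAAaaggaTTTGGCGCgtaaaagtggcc
E2F3: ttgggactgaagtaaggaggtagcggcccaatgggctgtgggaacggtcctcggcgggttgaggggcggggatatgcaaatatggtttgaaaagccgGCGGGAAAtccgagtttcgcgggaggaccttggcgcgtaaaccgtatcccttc

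The main question was when, and by how much, the members were lower in U0126 than in DMSO-EGF. Apart from E2F3, which was lower at 4 h in 2D, the members as a group lay near the level of DMSO-EGF through 4 h. They began to lie below it at 8 h in 3D04 and at 12 h in 2D, and were below it at 48 h in every series. In series 2D03 the median difference of the 45 members was 0.11 at 4 h, -0.09 at 8 h, -0.37 at 12 h, -0.74 at 24 h and -1.16 at 48 h (log2). In 2D04 it was -0.01, -0.02, -0.34, -0.83 and -1.50 at these times. In 3D04 it was 0.01, -0.21, -0.59, -1.51 and -1.42. The median of all genes lay between -0.03 and 0.04 at every time in every series. At 48 h, 45 of 45 members were below 0 in each series, against 47.0%, 48.6% and 46.8% of all genes in 2D03, 2D04 and 3D04.

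**Figure D1:**
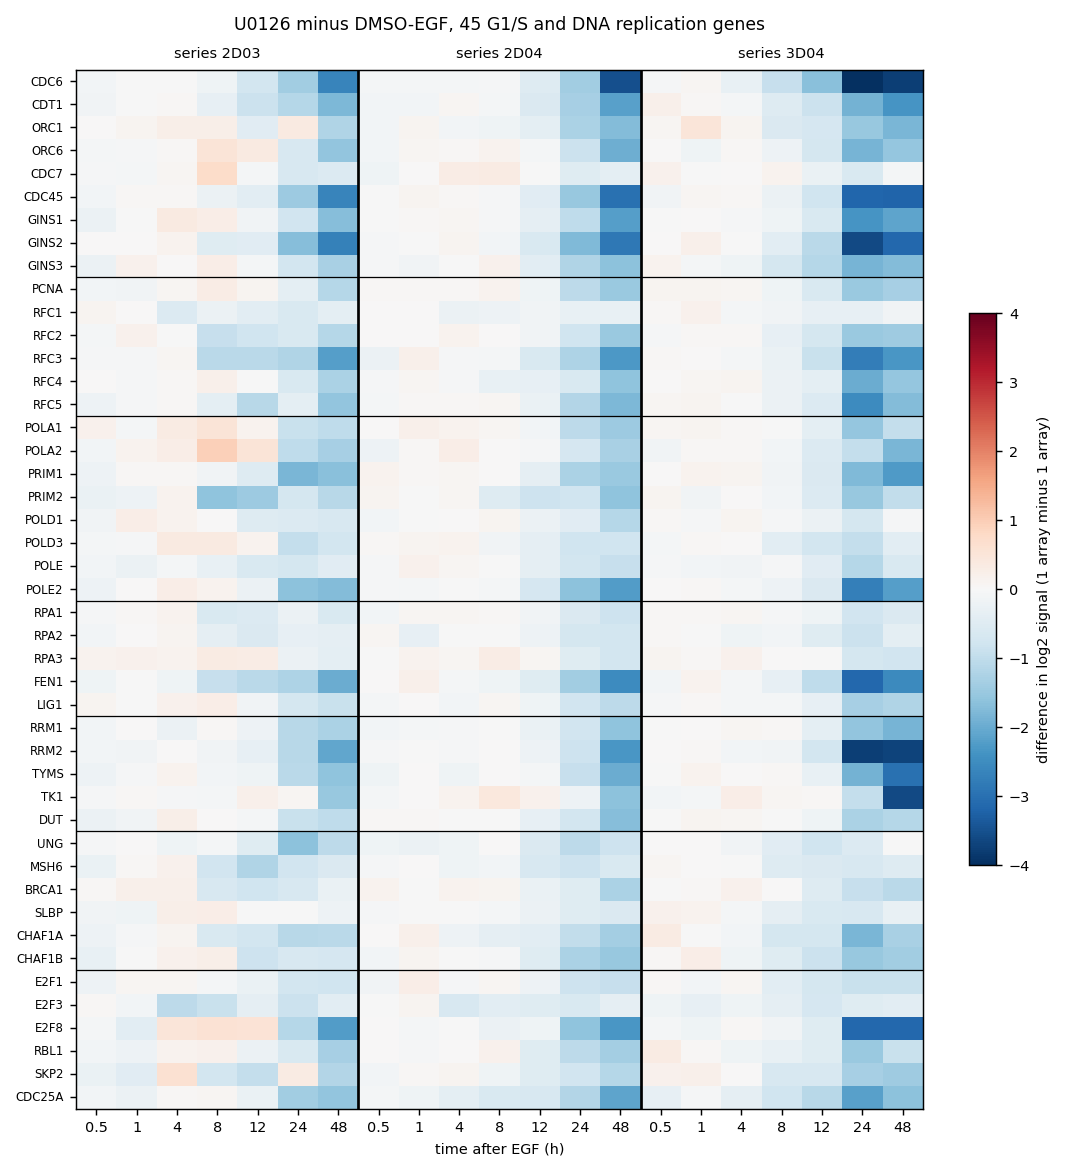
Difference between the U0126 array and the DMSO-EGF array for each of the 45 members (rows, grouped by role, black lines between groups) at 7 times after EGF (columns, hours) in 3 series, in log2 units, with blue for lower in U0126. Blue spreads over nearly all rows at 24 and 48 h, reaching -4.25 for CDC6 at 24 h in 3D04, while RFC1, CDC7 and SLBP stay pale.

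In the test of the 2D arrays (limma, both series, 2 arrays against 2, Benjamini-Hochberg adjustment over all genes, adjusted p under 0.05), 0 of 45 members passed at 0.5 h, 1 h or 12 h. At 4 h 1 member fell and at 8 h again 1, followed by 5 at 24 h and 20 at 48 h, while 0 rose at any time. Of all genes, 0.00842% fell at 1 h, 0.404% at 4 h, 1.19% at 8 h, 1.25% at 12 h, 1.17% at 24 h and 3.86% at 48 h. Genes that rose made up 0.0253% at 4 h, 0.396% at 8 h, 0.413% at 12 h, 1.01% at 24 h and 4% at 48 h. At an unadjusted p under 0.05 the counts were 0, 0 and 2 members at 0.5, 1 and 12 h. Both 2D series differed in level for many members (the control arrays at 0 h gave CDC6 0.51 and 0.39 in 2D03 and 1.08 and 1.07 in 2D04), and a fit with the series as a replicate block takes out such a constant offset. With that block 2 members fell at 8 h (4.65% of all genes), 8 at 12 h (6.95%), 35 at 24 h (5.47%) and 43 at 48 h (9.03%). Those of 12 h were CDC45, RFC3, RFC5, PRIM2, FEN1, MSH6, CHAF1A and E2F3. The 12 h U0126 array of 2D03 had a low actin 5′ signal (5′ minus 3′ -1.08, against -0.36 to 0.31 on 94 arrays), and its part in these calls was not tested. At 12 h the differences in 2D03 and 2D04 were -1.46 and -0.84 for PRIM2, -1.11 and -0.28 for RFC5, and -1.07 and -0.47 for FEN1, but -0.43 and -0.45 for CDC45 and -0.37 and -0.50 for E2F3. At 48 h the pair without a call with the block was CDC7 and SLBP.

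Without the block, the count at 48 h was 12 without the DMSO-EGF array of 2D03, 10 without that of 2D04 and 11 without the U0126 array of 2D04. The count at 24 h was 2 without the DMSO-EGF array of either series or without the U0126 array of 2D03. At 12 h the count became 1 without the U0126 array of 2D04.

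E2F3, one of the activating E2F factors, was the first member to pass the test in 2D. At 4 h its signal was 1.22 in DMSO-EGF and 0.18 in U0126 in 2D03, 0.90 and 0.26 in 2D04, and 0.19 and 0.03 in 3D04. The U0126 array was the lowest of the 4 arms in each series at this time, and in both 2D series it lay well apart from control, EGF and DMSO-EGF. At 8 h the corresponding pairs were 1.01 and 0.12, 0.74 and 0.31, and 0.19 and -0.18. In 2D, E2F3 fell by 0.84 on the log2 scale at 4 h (SE 0.15, adjusted p = 0.00167 in limma) and by 0.66 at 8 h (SE 0.15, adjusted p = 0.0157). It fell by 0.74 at 24 h (adjusted p = 0.00269), whereas the value at 48 h was -0.39 (SE 0.15, adjusted p = 0.128, and 0.0277 with the replicate block). By 48 h E2F3 was lower in the other arms too, at 0.14, 0.24 and 0.22 in control, EGF and DMSO-EGF of 2D03, where the U0126 array read -0.21. The 4 h and 8 h calls were lost without either 2D03 array of the comparison, the 8 h one of which (U0126) had a low actin 5′ signal, and the second E2F3 probe set read -0.95 at 4 h. In 3D04 other members were further from DMSO-EGF at these times, with differences at 4 h and 8 h of -0.35 and -0.80 for CDC25A and -0.29 and -0.92 for CDC6, against -0.16 and -0.37 for E2F3.

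The 9 licensing and origin firing genes had a 2D median of -0.97 at 24 h and -1.96 at 48 h, the largest of the role groups in the mean of both 2D series. In 3D04 at 48 h their median was -2.11, against -2.97 for nucleotide supply, and in 2D03 at 24 h it was -0.77, against -1.08. At 48 h 6 of the 9 fell, or 8 with the block, and at 24 h 2 fell, or 7 with the block. CDC6 helps to load the replicative helicase at origins. At 48 h CDC6 read 0.44 in DMSO-EGF and -2.21 in U0126 in 2D03, 0.71 and -2.80 in 2D04, and 0.17 and -3.59 in 3D04. The U0126 array lay below all other arms in every series from 12 h on. CDC6 fell 8.46-fold at 48 h in 2D (log2 -3.08, SE 0.51, adjusted p = 5.59e-05), after -1.39 at 24 h (adjusted p = 0.2, and 2.45e-05 with the block).

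CDC45, which with the GINS complex and the MCM ring makes the active helicase, read 0.05 in DMSO-EGF and -2.58 in U0126 at 48 h in 2D03, 0.47 and -2.50 in 2D04, and -0.17 and -3.36 in 3D04. It fell at 24 h (log2 -1.49, SE 0.38, adjusted p = 0.0227) and 6.96-fold at 48 h (adjusted p = 1.99e-06). GINS2, a GINS subunit and the member of this role with the largest mean difference over 24 and 48 h, read -0.90 in DMSO-EGF and -3.60 in U0126 at 48 h in 2D03. In 2D04 it read -0.65 and -3.52, and in 3D04 -1.11 and -4.24. DMSO-EGF and U0126 did not overlap across series for either gene. GINS2 fell 6.89-fold (log2 -2.79, SE 0.56, adjusted p = 0.000751), GINS1 by 1.96 on the log2 scale (adjusted p = 0.0209) and GINS3 by 1.47 (adjusted p = 0.0367).

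ORC6, a subunit of the origin recognition complex, had the smallest adjusted p of all members. Its 48 h signal was 0.28 in DMSO-EGF and -1.29 in U0126 in 2D03, 0.31 and -1.63 in 2D04, and 0.40 and -1.15 in 3D04. It fell by 0.74 at 24 h (SE 0.12, adjusted p = 0.00021) and by 1.75 at 48 h (SE 0.12, adjusted p = 8.86e-13). At 12 h ORC6 was not below DMSO-EGF in 2D03 (0.96 against 0.60), on the U0126 array with the low actin 5′ signal. It was close to DMSO-EGF in 2D04 (0.63 against 0.71) and below it in 3D04 (0.02 against 0.73). ORC1, the largest subunit of the same complex, stood at -1.47 (SE 0.90, adjusted p = 0.459, and 0.00244 with the block) and CDT1, the partner of CDC6 in helicase loading, at -1.99 (SE 0.67, adjusted p = 0.0624, and 3.51e-06 with the block).

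CDC7, the kinase that triggers origin firing, had the smallest late difference of the role. At 48 h it read 0.68 in DMSO-EGF and 0.12 in U0126 in 2D03, 0.67 and 0.29 in 2D04, and 0.57 and 0.48 in 3D04. The 3D pair differed by less than the control, EGF and DMSO-EGF arrays of that time differed among themselves (0.54, 0.26 and 0.57). In 2D the difference was -0.47 (SE 0.47, adjusted p = 0.768, and 0.112 with the block).

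**Figure D2:**
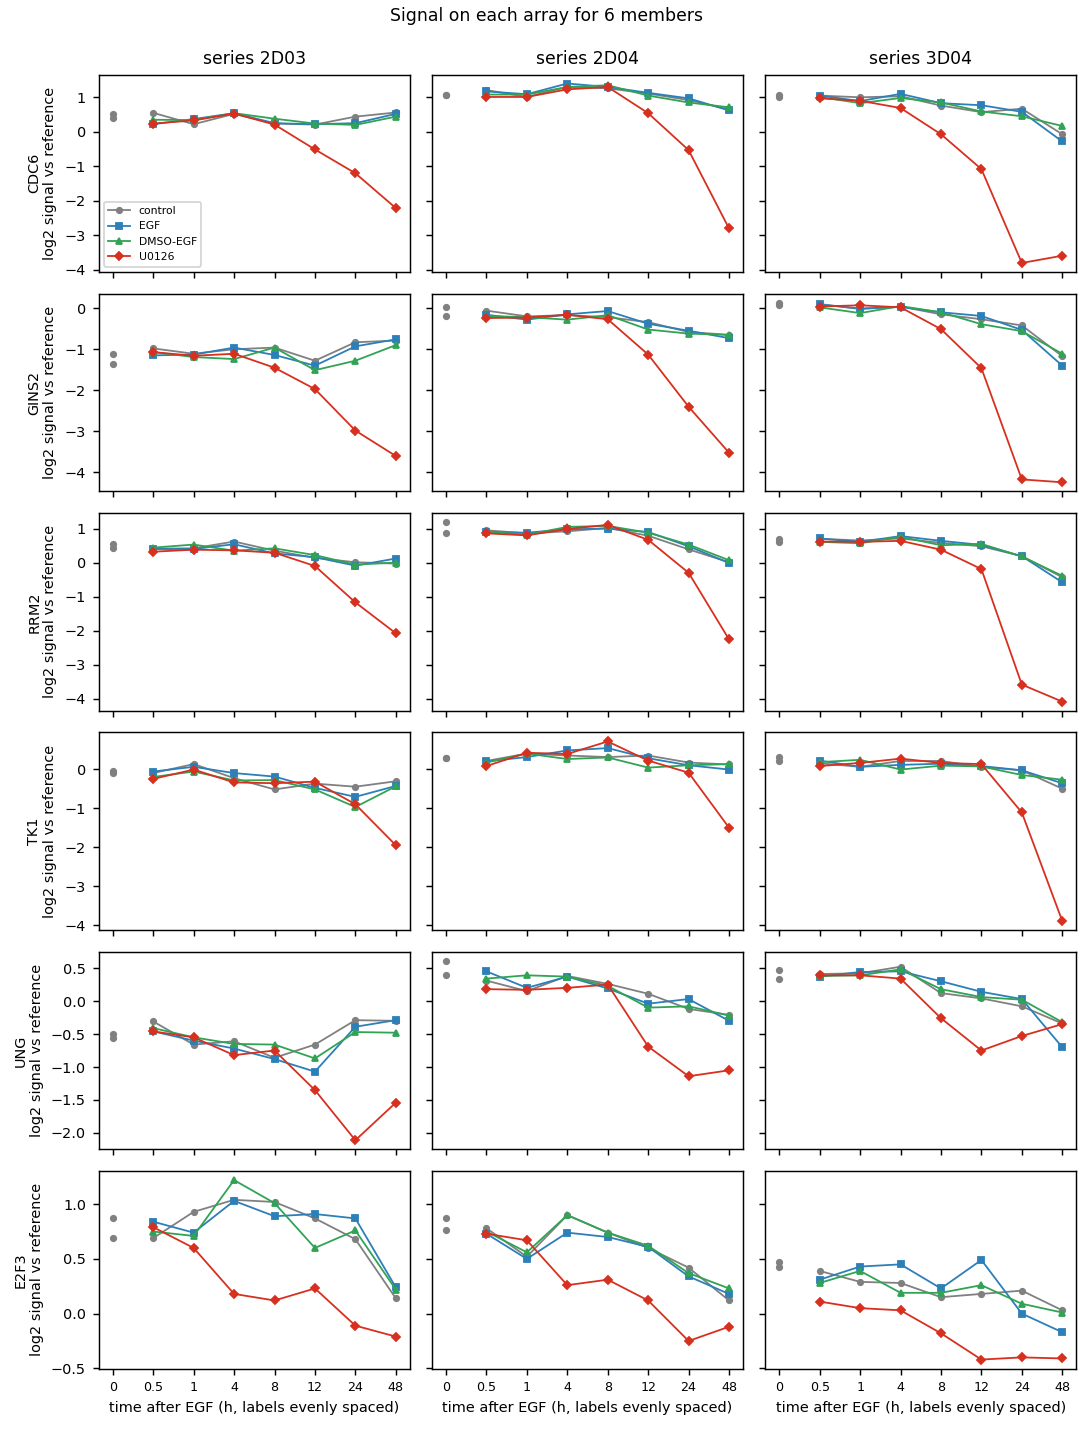
Signal (log2, relative to an unstated reference) of 6 members on each array against time after EGF (hours, labels evenly spaced) in the 3 series, with 1 point per array, and control arrays only at 0 h. CDC6, GINS2 and RRM2 part from the other arms by 12 to 24 h, TK1 only by 48 h in 2D, and E2F3 already at 4 h in 2D. For UNG in 3D04 the U0126 array reads -0.53 at 24 h and -0.35 at 48 h. The other arms are lower at 48 h than at 24 h, at -0.34, -0.70 and -0.32 in control, EGF and DMSO-EGF.

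Of the 6 clamp and clamp loader genes 5 fell at 48 h, with a role median of -1.38, and the block added RFC1. RFC3, a subunit of the loader that opens the clamp, read -0.34 in DMSO-EGF and -2.55 in U0126 at 48 h in 2D03, -0.31 and -2.62 in 2D04, and -0.39 and -2.72 in 3D04. These 3 pairs were nearly alike, and it fell 4.79-fold in 2D (log2 -2.26, SE 0.43, adjusted p = 0.000388). RFC4, another subunit, fell by 0.61 at 24 h (SE 0.15, adjusted p = 0.0222) and by 1.44 at 48 h (adjusted p = 2.15e-08). PCNA, the clamp itself, read -0.21 and -1.35, -0.21 and -1.70, and -0.34 and -1.67 in DMSO-EGF and U0126 of 2D03, 2D04 and 3D04 at 48 h. It fell 2.49-fold (log2 -1.31, SE 0.37, adjusted p = 0.0216), as did RFC2 (adjusted p = 0.0307), and RFC5 fell by 1.69 (adjusted p = 0.0101).

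RFC1, the large subunit of the loader, moved least over 24 and 48 h. At 4 h its U0126 minus DMSO-EGF difference was -0.56 in 2D03, -0.25 in 2D04 and -0.07 in 3D04. The 2D mean of -0.405 at 4 h was not called, and the second probe set read -0.05. At 24 h RFC1 read 0.17 in DMSO-EGF and -0.43 in U0126 in 2D03, 0.04 and -0.26 in 2D04, and 0.07 and -0.27 in 3D04. At 48 h the pairs were 0.12 and -0.27, 0.27 and -0.03, and 0.09 and -0.05. The U0126 arrays were below DMSO-EGF each time, by little at 48 h in 3D04. RFC1 fell by 0.45 at 24 h (SE 0.12, adjusted p = 0.0267) and stood at -0.34 at 48 h (adjusted p = 0.0653, and 0.0306 with the block), and its second probe set read -0.16 and 0.07 at these times.

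Among the 8 polymerase and primase genes, 3 fell at 48 h and all 8 with the block, with a role median of -1.27. The 3 were POLA1 (log2 -1.23, SE 0.37, adjusted p = 0.0294), POLA2 (-1.30, SE 0.26, adjusted p = 0.000533) and PRIM1 (-1.58, SE 0.45, adjusted p = 0.0203). They are subunits of the primase and polymerase alpha complex. PRIM2, also a subunit of that complex, stood at -1.355 and did not pass without the block. POLE2, a subunit of the leading strand polymerase, had the largest difference over 24 and 48 h. It read -0.28 in DMSO-EGF and -2.01 in U0126 at 48 h in 2D03, 0.43 and -1.80 in 2D04, and -0.02 and -2.22 in 3D04. The arms lay far apart in every series, and the offset between 2D03 and 2D04 was large before treatment, with control arrays at 0 h of -0.25 and -0.49 against 1.13 and 0.82. POLE2 stood at -1.98 (SE 0.71, adjusted p = 0.0878, and 9.58e-11 with the block). POLD1, the catalytic subunit of the lagging strand polymerase, had the smallest mean difference over 24 and 48 h in 2D. Its 48 h pairs were -0.05 and -0.70, 0.57 and -0.56, and 0.12 and 0.06. In 3D04 its arms met at 48 h, and in 2D it stood at -0.89 (SE 0.49, adjusted p = 0.367 in limma, and 0.000561 with the block). At 48 h alone POLE (-0.69) and POLD3 (-0.76) moved less in 2D.

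The 5 genes of single-strand binding and Okazaki fragment maturation included FEN1, the flap nuclease, which moved far, and the RPA subunits, which moved little. FEN1 read -0.18 in DMSO-EGF and -2.16 in U0126 at 48 h in 2D03, 0.33 and -2.19 in 2D04, and -0.17 and -2.71 in 3D04. In all 3 series the U0126 array was lowest, and FEN1 fell 4.76-fold in 2D (log2 -2.25, SE 0.50, adjusted p = 0.00226). RPA3, the smallest subunit of the single-strand binding protein, read -0.73 and -1.11, -0.56 and -1.28, and -0.58 and -1.36 in DMSO-EGF and U0126 of 2D03, 2D04 and 3D04. RPA3 fell by 0.55 on the log2 scale (SE 0.17, adjusted p = 0.032). RPA1 stood at -0.73 (adjusted p = 0.111, and 0.000275 with the block), RPA2 at -0.53 (adjusted p = 0.66, and 0.0279 with the block), and the ligase LIG1 at -0.96 (adjusted p = 0.3, and 4.03e-05 with the block).

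Of the 5 nucleotide supply genes 3 fell at 48 h and all 5 with the block, with a role median of -0.94 at 24 h and -1.57 at 48 h. RRM2, the regulatory subunit of ribonucleotide reductase, read 0.01 in DMSO-EGF and -2.07 in U0126 at 48 h in 2D03, 0.08 and -2.25 in 2D04, and -0.38 and -4.08 in 3D04. The 3D array with U0126 was far below the 2D ones, and RRM2 fell 4.61-fold in 2D (log2 -2.21, SE 0.38, adjusted p = 8.08e-05). TYMS, which makes thymidylate, fell by 1.79 (SE 0.35, adjusted p = 0.000516) on the probe set read, and RRM1 and DUT stood at -1.44 (adjusted p = 0.146) and -1.35 (adjusted p = 0.119), or 4.34e-11 and 6.68e-10 with the block.

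TK1, the thymidine kinase of the salvage route, was late. At 24 h it read -0.97 in DMSO-EGF and -0.90 in U0126 in 2D03, 0.10 and -0.09 in 2D04, and -0.15 and -1.11 in 3D04. At 48 h the pairs were -0.44 and -1.95, 0.13 and -1.50, and -0.27 and -3.89. The arms overlapped at 24 h in 2D and were apart at 48 h in every series. In 2D the difference was -0.06 at 24 h (SE 0.39, adjusted p = 0.995), and TK1 fell 2.97-fold at 48 h (log2 -1.57, adjusted p = 0.00766).

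The 6 genes of repair, histone mRNA and chromatin assembly had a median of -0.88 at 24 h and -0.86 at 48 h, and 0 of them passed at 48 h in limma (1 at an unadjusted p under 0.05). With the block 5 of the 6 fell. UNG, the glycosylase that removes uracil from DNA, had the largest mean difference over 24 and 48 h in 2D, with 24 h pairs of -0.47 and -2.11, -0.08 and -1.14, and 0.02 and -0.53 in DMSO-EGF and U0126 of 2D03, 2D04 and 3D04. At 48 h they were -0.48 and -1.54, -0.22 and -1.05, and -0.32 and -0.35. U0126 was lower in 2D at both times, and in 3D04 the arms had met by 48 h. In 2D UNG stood at -1.35 at 24 h (SE 0.54, adjusted p = 0.263, and 1.23e-05 with the block). SLBP, which binds histone mRNA, moved least, with 48 h pairs of -0.19 and -0.40, 0.02 and -0.55, and -0.44 and -0.73, and stood at -0.39 (SE 0.30, adjusted p = 0.618, and 0.109 with the block). The chromatin assembly subunits CHAF1A and CHAF1B stood at -1.22 (adjusted p = 0.285) and -1.08 (adjusted p = 0.446), or 4.72e-06 and 0.000898 with the block.

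Of the 6 G1/S regulators 1 fell at 48 h, CDC25A, the phosphatase that activates the S-phase kinases (log2 -1.84, SE 0.44, adjusted p = 0.00459). All 6 fell with the block. E2F8, a repressing E2F, read -0.29 in DMSO-EGF and -2.51 in U0126 at 48 h in 2D03, 0.28 and -2.04 in 2D04, and -0.16 and -3.30 in 3D04. Its arms were apart in every series, and it stood at -2.27 (SE 0.79, adjusted p = 0.0722, and 1.5e-09 with the block). E2F1, the best known activating E2F, stood at -0.86 (adjusted p = 0.285, and 0.00579 with the block), RBL1, the retinoblastoma relative p107, at -1.34 (adjusted p = 0.342, and 3.51e-06) and SKP2, which targets the inhibitor p27 for breakdown, at -1.15 (SE 1.24, adjusted p = 0.796, and 0.00632). SKP2 was also not below DMSO-EGF at 24 h in 2D03.

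For 20 members with several probe sets, those of 7 members differed by more than 0.5 at 48 h (RFC3, PRIM2, TYMS, DUT, MSH6, CHAF1A and CDC25A), the one with the largest SD being read. For TYMS the probe sets ranged from -1.79 to -0.20, for CDC25A from -1.84 to -0.36, and for PRIM2 from -1.35 to 0.14.

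The order in which members parted from DMSO-EGF was read per series, with the onset taken as the first time from which U0126 was lower by at least 0.5 (log2) at that and all later times. This is a description of single arrays, with no test. In 2D03 the onset was at 8 h for 6 members, at 12 h for 5, at 24 h for 21 and at 48 h for 6, and 7 had none. In 2D04 the counts were 2, 8, 27 and 5, and 3 had none. In 3D04 they were 8, 17, 12 and 0, and 8 had none. Of all genes, 0.817%, 0.413%, 1.49% and 3.71% had these onsets in 2D03, 0.345%, 0.901%, 3.23% and 4.83% in 2D04, and 0.733%, 1.40%, 4.46% and 4.23% in 3D04. So the most frequent onset was 24 h in both 2D series and 12 h in 3D04. Just inside the threshold at 12 h was CDC6 in 2D04 (-0.51), and just outside it was GINS2 in 2D03 (-0.46). E2F3 had no onset by this rule in any series.

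Onset was earlier in 3D04 than in both 2D series for 16 members and for 8.31% of all genes, most of which had no onset at all, among the members CDC6 and CDT1 (8 h against 12 h), GINS3 (8 h against 24 h) and ORC6 and RRM2 (12 h against 24 h). It was the same in all 3 series for 11 members (83.9% of all genes), those without an onset included. It was later in 3D04 than in both 2D series, or absent there, for 4 members (1.2% of all genes), PRIM2, POLD1, POLD3 and UNG. Both 2D series gave the same onset for 23 members (90.6% of all genes). TK1 was the one member with an onset at 48 h in both 2D series, and its onset in 3D04 was at 24 h. Between DMSO-EGF and EGF, 45 of 45 members had no onset in any series by the same rule, and nor did 98.7%, 99.5% and 99.7% of all genes in 2D03, 2D04 and 3D04.

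Onsets at 8 h in 2D03 rest on an array that stood apart. On the U0126 arrays of 2D03 the actin control probe sets read 1.26 lower at the 5′ than at the 3′ end at 8 h (a difference of -1.26) and -1.08 at 12 h, against -0.36 to 0.31 on the other 94 arrays. At 8 h the members there spread from -1.62 (PRIM2) to 0.96 (POLA2), with 10 at or below -0.5 and 5 at or above 0.5. Of all genes 13.6% were at or below -0.5 on that array, against 2.79% in 2D04 and 3.34% in 3D04. The part of RNA quality in these onsets was not tested. In the count of members lower by 0.5 or more in all 3 series, 0 members appeared at 8 h, 6 at 12 h (1.42% of all genes), 31 at 24 h (2.76%) and 34 at 48 h (4.34%).

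The middle window, the mean of 4, 8 and 12 h, was compared in the joint fit described with the late window. In 3D04 12 members fell (6.32% of all genes) and 0 rose, among them CDC6 (log2 -0.96, SE 0.24, adjusted p = 0.00325), CDC25A (-0.75, adjusted p = 0.000114), GINS3 (-0.68, adjusted p = 0.000494) and E2F3 (-0.40, adjusted p = 0.00207). In 2D04 2 fell (4.28%), E2F3 (-0.52, adjusted p = 0.000118) and CDC25A (-0.55, adjusted p = 0.00875). In 2D03, which holds the arrays with the low actin 5′ signal, 13 fell and 5 rose, while 20.5% of all genes fell and 12.5% rose. E2F3 was the one member that fell in all 3 series in this window (-0.77 in 2D03, adjusted p = 1.92e-08).

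The next comparison asked whether the difference itself grew between 24 and 48 h in 2D. The median change was -0.50, and 38 of 45 members had a more negative difference at 48 h. ORC6 alone passed (log2 -1.01, SE 0.17, adjusted p = 0.00136), against 0.168% of all genes, and 6 members had an unadjusted p under 0.05. Without the 48 h U0126 array of 2D03, 2 members passed. With the block 8 passed (0.926% of all genes), namely CDC6, ORC6, CDC45, GINS1, RFC4, RRM2, TYMS and TK1. The 7 members without a more negative difference at 48 h were CDC7, RFC1, POLD3, POLE, UNG, MSH6 and E2F3, with UNG at -1.35 and then -0.94.

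The late window, the mean of 24 and 48 h, was then compared between series in a joint fit of the 96 arrays, where every combination of series and time had its own level and the times of a window serve as repeats. The p-values of this fit therefore assume 1 constant difference per series within a window. That does not hold for every member: TK1 in 3D04 stood at -0.96 at 24 h and -3.62 at 48 h. In 2D03 39 of 45 members fell (10.1% of all genes), in 2D04 all 45 (12.9%) and in 3D04 41 (16.6%), with medians of -0.94, -1.20 and -1.45. ORC1, RPA2, TK1, BRCA1, SLBP and SKP2 had no call in 2D03, and CDC7, RFC1, POLD1 and UNG had none in 3D04. The late difference was larger in 3D04 than in 2D for 14 members and smaller for 1, UNG, against 6.33% and 4.87% of all genes, and 0 members differed between 2D04 and 2D03 (5 at an unadjusted p under 0.05). That 0 became 1 without the 48 h DMSO-EGF array of 2D03, 2 without its 48 h U0126 array and 6 without the 24 h U0126 array of 2D04.

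RRM2 differed most, at -1.60 in 2D03, -1.58 in 2D04 and -3.74 in 3D04 (3D minus 2D -2.15, SE 0.24, adjusted p = 6.55e-09). CDC6 stood at -2.02, -2.45 and -4.01 (3D minus 2D -1.77, SE 0.35, adjusted p = 0.00032). TK1 stood at -0.72, -0.91 and -2.29 (3D minus 2D -1.48, SE 0.37, adjusted p = 0.00423). In these means over 24 and 48 h the 2D series lay close together for these genes and 3D04 lay apart. E2F8 (-1.31), GINS2 (-1.11), FEN1 (-1.06), TYMS (-1.04) and CDC45 (-1.03) followed, and GINS1, RFC3, RFC4, RFC5, POLE2 and RRM1 passed with 3D minus 2D values from -0.89 to -0.54. UNG went the other way, at -1.35, -0.94 and -0.29 (3D minus 2D 0.86, SE 0.19, adjusted p = 0.0013). The mean hides a difference between the times, read here on single arrays without a test. CDC6 stood at -1.40, -1.38 and -4.25 at 24 h in 2D03, 2D04 and 3D04, but at -2.65, -3.51 and -3.76 at 48 h. RRM2 (-2.08, -2.33 and -3.70) and TK1 (-1.51, -1.63 and -3.62) were still apart at 48 h. GINS1, RFC4, RFC5 and POLE2 in 3D04 were then not below 2D04. The 15 calls became 23 without the 48 h U0126 array of 2D03 and 8 without the 24 h U0126 or the 48 h DMSO-EGF array of 3D04. They became 6 after quantile normalization of the arrays.

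**Figure D3:**
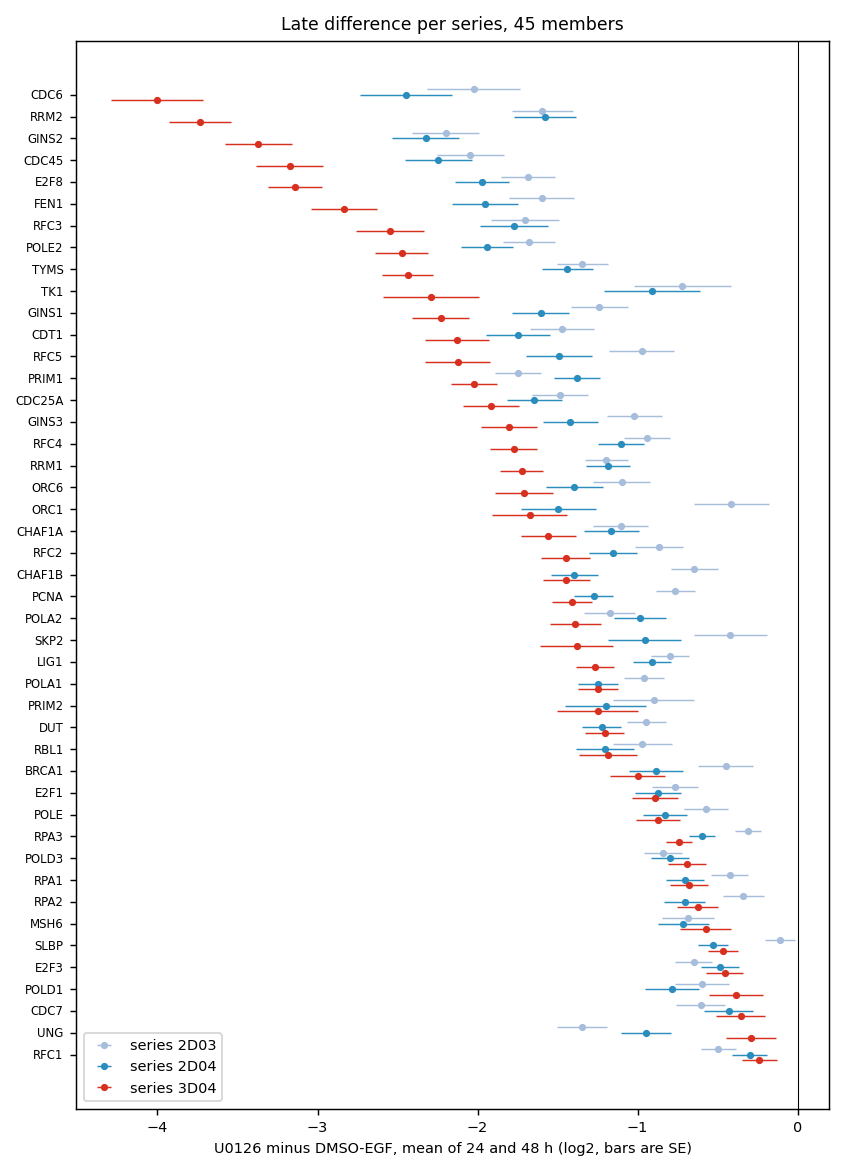
U0126 minus DMSO-EGF over 24 and 48 h (log2, horizontal axis) for each of the 45 members, as points with SE bars from the fit of all arrays, in 3 colours for the series, ordered by the value in 3D04. At the top CDC6, RRM2 and GINS2 reach -4.01, -3.74 and -3.37 in 3D04, well below 2D, while near the bottom UNG is closer to 0 in 3D04 (-0.29) than in 2D03 (-1.35).

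The members also changed with time in untreated cells, most in 3D. In control arrays of the late window against control at 0 h, 34 of 45 members fell in 3D04 (9.1% of all genes), 18 in 2D04 (9%) and 1 in 2D03 (5.9%), the last being E2F3, while POLD3 rose there (4.75% of all genes rose). The medians were -0.59, -0.35 and 0.03. CDC25A had the largest fall of these in 3D04 (log2 -1.21), and POLE2 fell by 0.95 there (SE 0.16, adjusted p = 4.1e-05), against -0.55 in 2D04 (adjusted p = 0.0128) and 0.05 in 2D03 (adjusted p = 0.889). CDC6 did not pass in any series (-0.74, SE 0.29, adjusted p = 0.0711 in 3D04). The 3D count of 34 became 17 without 1 of the control arrays at 0 h and 9 without the control array at 48 h. In the 2D fit, 0 members passed in control from 0.5 to 24 h against 0 h (at an unadjusted p under 0.05, 1 at 24 h and 0 before). With the block 2 passed at 24 h, when 1.31% of all genes fell and 1.72% rose. The shares that follow are from the fit without the block. Of all genes 0.0253% fell and 0.0168% rose at 8 h, 0.0674% and 0.0926% at 12 h, and 0.0758% and 0.185% at 24 h. At 48 h ORC6 (-0.42, adjusted p = 0.0125), RFC1 (-0.34, adjusted p = 0.0414) and E2F3 (-0.67, adjusted p = 0.00157) fell in control, against 2.78% of all genes that fell and 2.37% that rose, or 8 members with the block (8.6%), and 0 without the 48 h control array of 2D04.

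Against control at 0 h, the member median at 48 h was 0.06 in control, -0.01 in DMSO-EGF and -1.28 in U0126 in 2D03. In 2D04 it was -0.40, -0.36 and -1.79, and in 3D04 -0.81, -0.72 and -2.19. In EGF it was 0.12, -0.45 and -0.93 in 2D03, 2D04 and 3D04. The U0126 median was below the other arms in each series. Within the U0126 arm of 2D, 16 members were lower at 24 h than at 0 h (3.44% of all genes) and 29 at 48 h (9.26%), or 41 (10.6%) and all 45 (15.9%) with the block. At 8 h and at 12 h 1 member passed, or 8 and 24 with the block. With the block 5.3% of all genes fell and 3.63% rose at 8 h, and 9.79% and 4.74% at 12 h. The count of 29 was 16 without the U0126 array at 0 h of 2D04. Within DMSO-EGF, set against DMSO at 0 h, 1 member, ORC6, fell at 48 h (log2 -0.53, adjusted p = 0.0171 in limma). Of all genes 0.876% fell, and with the block 6 members and 4.49% of all genes. Only with the block did members pass earlier, 1 at 12 h (0.244% of all genes fell, 0.396% rose) and 3 at 24 h (1.37% and 0.724%).

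**Figure D4:**
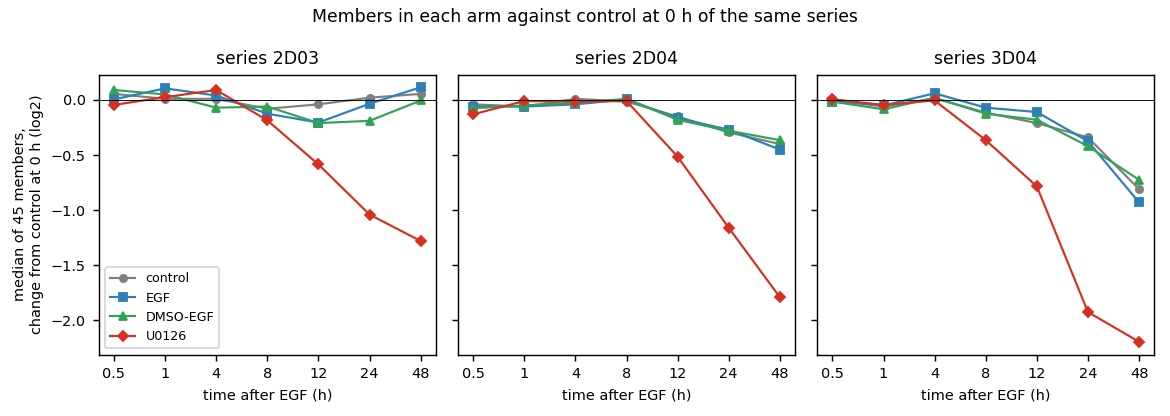
Median change of the 45 members from control at 0 h of the same series (log2, vertical axis) over time after EGF (hours) in the 4 arms, in 3 panels for the series. U0126 parts from the other arms by 12 h and ends at -1.28, -1.79 and -2.19, while at 48 h the other 3 arms lie between -0.01 and 0.12 in 2D03, between -0.45 and -0.36 in 2D04 and between -0.93 and -0.72 in 3D04.

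In 2D EGF itself moved the members little, and hardly any gene passed. Against control in 2D, 0 of 45 members passed at any of the 7 times, with or without the block, and 0% of all genes fell or rose in the fit without it. Over the 7 times together, 1 member value had an unadjusted p under 0.05. The member medians lay between -0.10 and 0.03 and single members between -0.36 and 0.28. On the single arrays of 3D04 at 48 h the EGF minus control median was -0.14, with 37 of 45 members below 0 (49.8% of all genes). DMSO-EGF against EGF in 2D gave 0 calls as well (0% of all genes), with 0 values at an unadjusted p under 0.05. Its medians ran from -0.10 to 0.01 and single members from -0.48 to 0.23. In 3D04 at 48 h, however, the DMSO-EGF array lay above the EGF array, with a member median of 0.24. There 4 of 45 members were below 0 (45.4% of all genes). The part of this in the 48 h U0126 difference of 3D04 was not tested. U0126 against DMSO at 0 h in 2D, before EGF, also gave 0 calls (0% of all genes, and 0 members at an unadjusted p under 0.05), with a median of -0.07.

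Most further replication and S-phase genes followed the members. Of 28 such genes, 0 fell at 24 h (13 at an unadjusted p under 0.05), or 18 with the block, and 13 at 48 h, or 22 with the block, with medians of -0.69 and -1.15. Of all genes 1.17% fell at 24 h (5.47% with the block) and 3.86% at 48 h (9.03%). On single arrays at 48 h, 25, 26 and 24 of the 28 were below 0 in 2D03, 2D04 and 3D04. MCM2, a subunit of the replicative helicase ring, stood at -1.38 at 24 h (SE 0.43, adjusted p = 0.0967) and fell by 1.87 at 48 h (adjusted p = 0.00343). CCNE2, a cyclin that drives S-phase entry, fell by 2.95 at 48 h (SE 0.82, adjusted p = 0.0175), and EXO1, a repair nuclease, by 3.04 (adjusted p = 8.29e-06). Of 9 G1/S brakes, which hold cells before S phase, 0 passed at 48 h (median 0.27, 4 at an unadjusted p under 0.05), or 3 rose with the block. CDKN1B, which encodes p27, stood at 0.72 (SE 0.24, adjusted p = 0.061).

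Mitotic genes and direct outputs of ERK frame the timing. Of 20 G2/M and mitosis genes 0 passed at 24 h in 2D (2 at an unadjusted p under 0.05), or 2 fell with the block (median -0.17), and 19 fell at 48 h (median -1.49). The 45 members had medians of -0.81 and -1.34 at these times. In 3D04 the order at 24 h was the other way, with a mitotic median of -1.98 (20 of 20 below 0) against -1.51 for the members. CDK1, the mitotic kinase, stood at -0.34 at 24 h (SE 0.15, adjusted p = 0.326) and fell by 1.89 at 48 h (adjusted p = 1.18e-11). Beside the 15 members whose late difference differed between 3D and 2D, 18 of the 20 mitotic genes were more negative in 3D (median -1.46). Of 6 ERK output genes 4 fell at 4 h (median -2.25), when E2F3 alone of the members passed the test. DUSP6, the ERK phosphatase, fell 10.9-fold at 4 h (log2 -3.44, SE 0.30, adjusted p = 4.31e-10), and CCND1, a G1 cyclin, stood at -0.42 at 4 h (adjusted p = 0.811) and fell by 1.14 at 24 h (SE 0.17, adjusted p = 4.15e-05). SPRY4, an inhibitor of the same pathway, and EGR1, an immediate early gene, fell at 4 h (log2 -3.62 and -3.57, adjusted p = 5.42e-11 and 5.61e-08). MYC stood at -0.81 at 4 h (SE 0.43, adjusted p = 1).

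**Figure D5:**
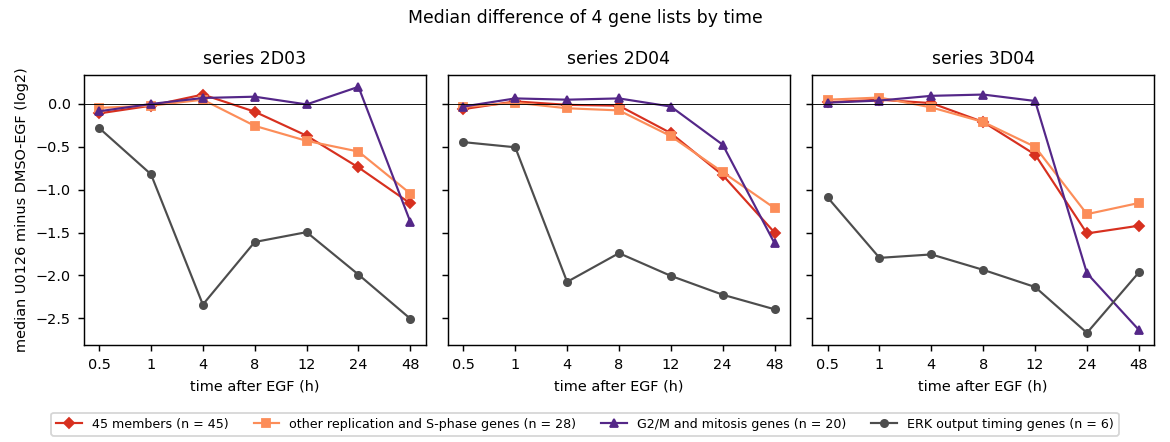
Median U0126 minus DMSO-EGF difference (log2, vertical axis) of the 45 members, 28 further replication and S-phase genes, 20 G2/M and mitosis genes and 6 ERK output genes over time after EGF (hours) in the 3 series. ERK outputs reach -2.34 and -2.08 at 4 h in 2D03 and 2D04 and are already at -1.09 at 0.5 h in 3D04, and members and further replication genes are lower by 12 h. Mitotic genes are near 0 at 12 h in each series, lie closer to 0 than the members at 24 h in 2D, and lie below them at 24 h in 3D04 (-1.98 against -1.51).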

How the data were processed

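The 96 arrays were normalized by the authors before deposit; the submitters' processing notes name RMA and give no version. The deposited values are presumed to be log2 signals per probe set, as RMA returns them, and neither the log base nor the reference is stated in the sources used here. Array medians lay between -0.06 and 0.03, single values between -5 and 5.7, and probe set means between -4.69 and 4.10. Fold changes assume log2. Control probe sets (524 of 22930) and probe sets with several genes (125) were left out, and for each of the 11874 genes the probe set that varied most over the 96 arrays (by SD) was taken, which can favour the one that changes most. The number of arrays limits the precision.

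The tests used limma (version 3.58.1, under R 4.3.3), with eBayes fitting a trend of the variance and no filter. Adjusted p-values follow Benjamini-Hochberg across the 11874 genes, and 0.05 was the limit for a call. The 2D arrays were fitted with 31 group means (33 residual degrees of freedom), and all arrays with terms per series and time and per arm, series and window (39). Repeat numbers follow the series label. Deviations of same-numbered 2D samples from their group means correlated between 0.228 and 0.819 (median 0.635) over 465 pairs of groups, so a fit with the replicate block (32) was run beside the 2D results. No pair of arrays held identical values. The procedure was also run on simulated data. Their noise was drawn separately for each array, without an offset between series, so that run cannot judge the fits under such an offset.

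The members, the other gene lists and the tests were chosen with earlier results of these data known. Arrays are given in full for the member of each role with the largest and the smallest mean difference over 24 and 48 h in 2D and for the earliest called members. Of other lists, up to 4 genes with the smallest adjusted p at 48 h, and MCM2, CCNE2, CCND1, MYC, DUSP6, SPRY4 and EGR1, could be named. PCNA was shown in full as well, chosen after its values were seen. The alternatives were the mean of a gene's probe sets or the choice by SD without the U0126 arrays, arrays centred on their median, quantiles made equal, weights for arrays, no trend, a filter on SD, other onset thresholds, and arrays left out.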

Additional observations from a re-analysis of the deposited data

Results flagged for a closer look

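The late difference between U0126 and DMSO-EGF was not the same in 3D04 as in the 2D series for 15 members, by the test of that difference in limma (mean of 24 and 48 h, 3D minus 2D on the log2 scale, adjusted p under 0.05). It was more negative in 3D04 for CDC6 (-1.77), CDC45 (-1.03), GINS1 (-0.81), GINS2 (-1.11), RFC3 (-0.81), RFC4 (-0.75), RFC5 (-0.89), POLE2 (-0.67), FEN1 (-1.06), RRM1 (-0.54), RRM2 (-2.15), TYMS (-1.04), TK1 (-1.48) and E2F8 (-1.31). It was less negative for UNG (0.86). The median difference of the 45 members was -0.74, -0.83 and -1.51 at 24 h in 2D03, 2D04 and 3D04. At 48 h it was -1.16, -1.50 and -1.42. The 3D arrays form 1 series, so culture and series cannot be told apart, and 34 members also fell with time in control cells of that series.

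The difference of ORC6 in 2D was 1.01 more negative at 48 h than at 24 h (log2 -1.01), by the test of that change.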

How the results depend on the processing

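With the replicate block the counts of members moved to 2 at 8 h, 8 at 12 h, 35 at 24 h, 43 at 48 h, 8 for the change from 24 to 48 h, 8 for control at 48 h and 45 for U0126 at 48 h against 0 h. A count is said to have moved if it changed more than 1.5-fold or to or from 0, so smaller changes are not listed. Other settings that moved a count were array weights (0 at 8 h, 1 at 24 h), the mean of all probe sets (1 at 12 h), quantile normalization (6 for 3D against 2D, and 6 with onset by 12 h in 2D03) and leaving out the 8 h and 12 h U0126 arrays of 2D03 (0 at 8 h, 1 for 2D04 against 2D03). Among single-gene calls in 2D, 9 were lost with array weights and 3 with quantile normalization. Onset counts moved with the threshold: by 12 h, 11 members in 2D03 became 20 at -0.3 and 2 at -1, 10 in 2D04 became 24 and 0, and 25 in 3D04 became 5 at -1, while by 24 h 32 in 2D03 became 16 and 37 in 2D04 became 18 at -1. Leaving out each array in turn gave 0 to 1 at 4 h, 0 to 1 at 8 h, 0 to 1 at 12 h, 2 to 6 at 24 h, 10 to 14 at 48 h, 1 to 2 for the change from 24 to 48 h, 0 to 3 for control at 48 h, 16 to 29 for U0126 at 48 h against 0 h, 8 to 23 for 3D against 2D, 0 to 6 for 2D04 against 2D03, and 9 to 30 for the late control in 3D. Where this left 1 array in an arm, that array was assumed to vary like the other groups. No single-gene difference checked in 2D changed direction under the other settings. Direction was not checked for the counts or with arrays left out in turn. The cause of these moves was not tested. With 2 arrays per arm in 2D and 1 in 3D, small differences could not be resolved, and signal over background was not available from these values.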
